A study of Drosophila melanogaster with 8 samples.

Results

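Actin filaments and the myosin II motor shape the cell cortex. In Drosophila, Act5C and Act42A encode the cytoplasmic actins, chic encodes profilin, which delivers actin monomers to growing filament ends, and tsr encodes cofilin (twinstar), which severs and depolymerises filaments. Moe encodes Moesin, which links filaments to the plasma membrane, zip and sqh encode the heavy chain and the regulatory light chain of non-muscle myosin II, Rho1 encodes the small GTPase that switches myosin II and formins on, and sn encodes fascin (singed), which bundles filaments. The S2 line, established from late Drosophila embryos and resembling the phagocytic hemocytes of the fly, uses this machinery to spread, divide and engulf particles.

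These 9 genes were chosen by name, with earlier results of these data known. Their rows were found by pairing the FlyBase identifiers of the deposited tables with current symbols. Of the 9 genes, 8 had a row among the 15438 genes listed. The identifier now carried by zip is in none of the tables, so the heavy chain was not analysed here. Act42A was listed at 0 in all 8 libraries, which left 7 genes with values. Of these, 6 passed the filter on low values and were tested, and sn did not.

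The study profiled RNA of S2 cells with stably transfected vectors (pUWG with neomycin resistance) carrying wild-type or mutant Beaf, the gene of the insulator protein BEAF-32, with 3 libraries of each. Resistant colonies were picked after about 10 days in G418, and the labels do not say whether a line was 1 clone or whether libraries came from separate cultures, so the p-values here speak only of the spread among these samples, and that spread may be technical. A further library came from cells depleted of CTCF, another insulator protein, by RNA interference (400 µg of dsRNA, cells harvested after 5 days), and 1 came from its control, whose treatment the labels do not describe. The labels do not say that the cells' own Beaf gene was removed, and the mutation carried and any other difference between the transfected lines cannot be told apart. A pair of library preparations is described, 1 of them without poly-A selection, with no word on which was used for a given library. Libraries of the Beaf lines are numbered here by deposited table, since every such table has 1 column of each genotype.

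The gene values of each Beaf library summed to 1544063 to 2122627. The CTCF control held 10963743 gene reads and its knockdown 9267319, so the CTCF pair gives the smaller counting error. Reads not aligned made up 18.4% of the control and 45.1% of the knockdown, and the part of this in their ratios was not tested. Reads outside annotated features made up 94.0%, 91.7% and 91.3% in wild-type libraries 1 to 3. In the mutant libraries they made up 85.6%, 87.4% and 87.4%. Reads not aligned made up 0.790%, 3.32% and 3.55% in wild type and 10.4%, 7.62% and 7.61% in the mutant. These shares thus went with genotype, and their part in the comparison of mutant and wild type was not tested. Both libraries numbered 1 stood apart. Wild-type library 1 held 25.0 CPM of BEAF-32, where CPM is the read count per 1000000 reads in genes. The other wild-type libraries held 469 and 676 CPM, and the mutants 1228 to 1929 CPM. Mutant library 1 had reads in 12268 genes, against 9070 to 9874 in the other Beaf libraries. Of the hemocyte markers, Hml (hemolectin) and srp (a GATA factor) were present in every library, while NimC1 was at 0 in wild-type library 1. Of the 6 neuronal markers elav was listed at 0 throughout, while the list summed to 70.2 to 82.7 CPM in the wild-type libraries, 137 and 148 CPM in mutant libraries 3 and 2 and 377 CPM in mutant library 1.

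The locations below are those of the BDGP6.54 annotation, which need not be the one the authors used. Act5C lies on the X chromosome from 5900861 to 5905399, Moe on X from 8873012 to 8898332, sqh on X from 6223061 to 6225140 and sn on X from 7964024 to 7986601. The gene chic lies on 2L from 5972115 to 5981018. On 2R, Act42A lies from 6013910 to 6015689, tsr from 24044453 to 24046805 and Rho1 from 16102687 to 16107229. All are protein-coding. Exons of sn share 119 bases with the opposite-strand gene sws and those of tsr share 6 bases with IntS1, while the exons of Act5C, Act42A, chic, Moe, sqh and Rho1 overlap no other gene in this annotation.

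Among the genes with values, Act5C RNA was the most abundant relative to its length. In wild-type Beaf cells it averaged 1682 CPM per kilobase of exon, followed by tsr at 729, Moe at 328, Rho1 at 265, chic at 251, sqh at 121 and sn at 0.550 CPM per kilobase. Rho1 and chic overlapped in this order, since their wild-type libraries ran from 249 to 278 and from 242 to 256 CPM per kilobase. The CTCF control had the same order, from 1535 CPM per kilobase for Act5C through 1354 for tsr down to 3.17 for sn. In the CTCF knockdown tsr, at 1743 CPM per kilobase, stood above Act5C at 1400, and chic at 474 stood above Rho1 at 455.

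Act42A had no read in any library, although it and Act5C are the actin genes generally used outside muscle. Of the protein-coding genes in the tables, 13.1% were listed at 0 in all 8 libraries. The actin genes encode near-identical proteins. Any reads that fit several of these genes are uncertain, and the values do not show that Act42A was silent. Whether shared reads contribute to the value of Act5C or to the 0 of Act42A was not tested. The 4 other actin genes, Act57B, Act79B, Act87E and Act88F, which are known for their use in muscle, held at most 1.62 CPM outside mutant library 1. That library held 3.09 to 5.57 CPM of each.

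The first comparison asked whether the lines carrying mutant Beaf differed in these RNAs from the wild-type lines. All 6 tested genes were lower in every mutant library than in every wild-type library, by their levels in CPM, and mutant library 1 was the lowest library for each of them. The same held for 18.4% of all 6564 tested genes, and for 28.1% of the 1653 tested genes that averaged at least 100 CPM. With values scaled by TMM factors (trimmed means of M values, which correct for differences in library composition) 6 of 6 were again lower, against 18.5% of all tested genes. No gene passed the test over all genes: limma-trend gave 0 of 6564 genes (0%) past an adjusted p of 0.05, and 0 of the 6. The median log2 fold change was −0.54 for the 6 genes and −0.02 over all tested genes. Without adjustment, 19.4% of all genes and 1 of the 6, Act5C, had a limma-trend p under 0.05. EdgeR's quasi-likelihood test and limma-voom also called 0 genes. DESeq2 called 220 of 6463 genes, 219 of them higher and 1 lower in the mutant. None of the 6, all of which were lower, was among them.

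**Figure D1:**
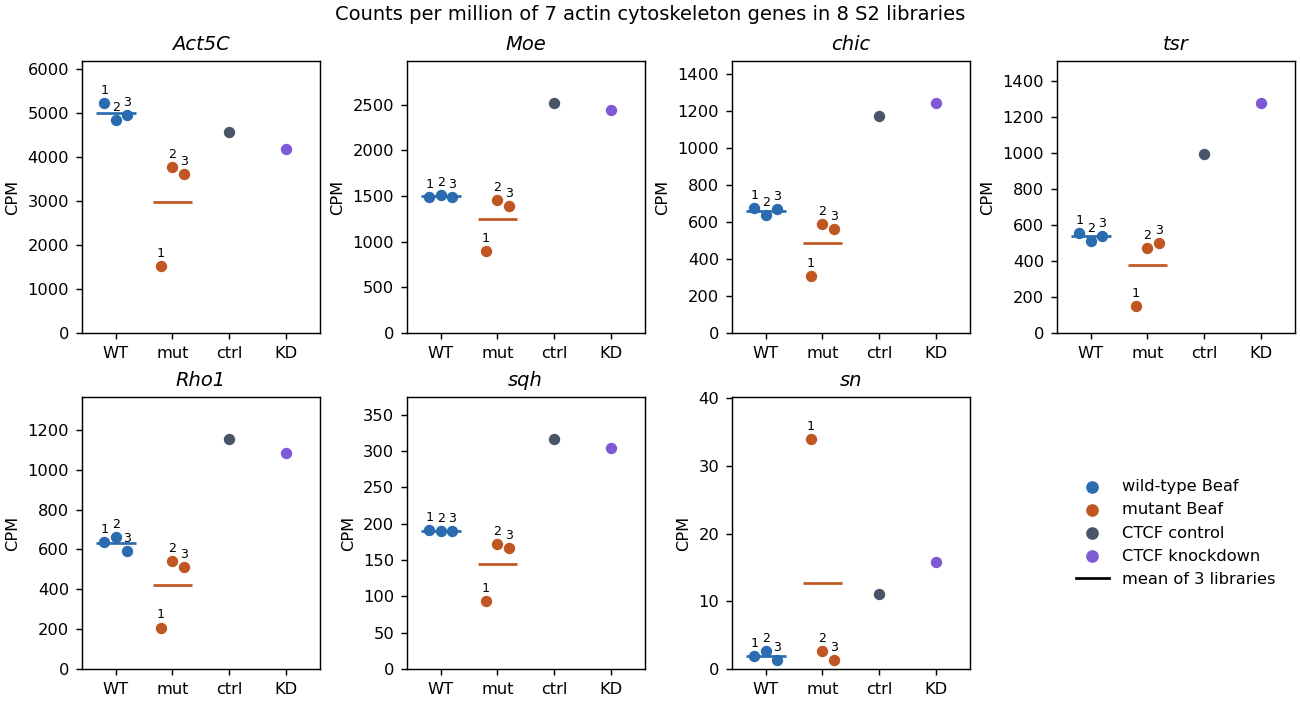
Each panel shows the CPM (vertical axis, linear from 0) of 1 gene in every library, by group on the horizontal axis, with the library number above each point of the Beaf lines and a line at the mean of 3 libraries. For the 6 genes other than sn the 3 wild-type points lie close together and above all mutant points, with mutant library 1 lowest, as for Act5C at 1521 CPM.

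Act5C stood at 5235, 4833 and 4957 CPM in the wild-type libraries, in order of number, and at 1521, 3760 and 3613 CPM in mutant libraries 1, 2 and 3. The wild-type libraries were thus alike, including library 1 with its low BEAF-32, and the mutant libraries fell into 1 much lower value and 2 nearer ones. The means were 5008 ± 206 CPM in wild type and 2965 ± 1253 CPM in the mutant (SD, n = 3 each). On the log2 scale the mutant was at −0.81 ± 0.30 (SE) relative to wild type, with a limma-trend adjusted p of 0.231. By level, Act5C ranked 21 to 26 among all genes in wild-type libraries, 30 and 32 in mutant libraries 2 and 3 and 72 in mutant library 1.

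Of the regulators of actin monomers and filament ends, both chic and tsr were lowest in mutant library 1. Profilin (chic) stood at 674, 636 and 671 CPM in wild-type libraries 1 to 3 and at 308, 591 and 563 CPM in the mutant libraries. The groups did not overlap, and the log2 difference was −0.44 ± 0.21 (SE, limma-trend adjusted p = 0.281). Cofilin (tsr) stood at 556, 511 and 541 CPM in wild type and at 149, 475 and 501 CPM in the mutant. Mutant library 3 lay only just under wild-type library 2, and the log2 difference was −0.65 ± 0.39 (SE, limma-trend adjusted p = 0.345).

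Moesin had the smallest difference of the 6. Moe stood at 1487, 1506 and 1490 CPM in wild type and at 892, 1458 and 1387 CPM in the mutant, a log2 difference of −0.24 ± 0.17 (SE, limma-trend adjusted p = 0.401). The myosin regulatory light chain gene sqh stood at 192, 189 and 190 CPM in wild type and at 93.4, 172 and 166 CPM in the mutant. The values behind these sqh levels were 151 to 407 per library, and its log2 difference was −0.40 ± 0.19 (SE, limma-trend adjusted p = 0.288). Rho1 stood at 636, 664 and 594 CPM in wild type and at 208, 543 and 511 CPM in the mutant, a log2 difference of −0.65 ± 0.30 (SE, limma-trend adjusted p = 0.281).

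Fascin RNA behaved differently. The gene sn was scarce in 5 of the Beaf libraries, at 1.88, 2.65 and 1.25 CPM in wild type and at 2.65 and 1.30 CPM in the later mutant libraries, numbered 2 and 3, but stood at 34.0 CPM in mutant library 1. The first 5 levels rest on deposited values of 2 to 5 and that of mutant library 1 on 55 reads. The groups overlapped, and with so few reads no difference between the other libraries could be detected at this depth. Mutant library 1 also had reads in the largest number of genes, as given above, and the part of this in the sn value was not tested.

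Each deposited table pairs 1 wild-type with 1 mutant library of the same number. All 6 genes were lower in the mutant of all 3 pairs, as were 27.1% of all tested genes. For the 6 this follows from the lack of overlap given above and is no separate result. The distance was much larger between the libraries numbered 1. There the log2 ratios of mutant over wild type ran from −0.74 for Moe to −1.90 for tsr, with −1.78 for Act5C, against a median of −0.18 over all tested genes and −0.26 over those that averaged at least 100 CPM. Between the libraries numbered 2 the ratios ran from −0.05 for Moe to −0.36 for Act5C, with a median of 0.02 over all tested genes. Between those numbered 3 they ran from −0.10 for Moe to −0.46 for Act5C, with a median of −0.03. Act5C had the lowest ratio of the 6 genes between the libraries numbered 2 and between those numbered 3, and tsr between those numbered 1. Of all tested genes, 6.79%, 14.5% and 11.0% had a lower ratio than Act5C between the libraries numbered 1, 2 and 3.

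**Figure D2:**
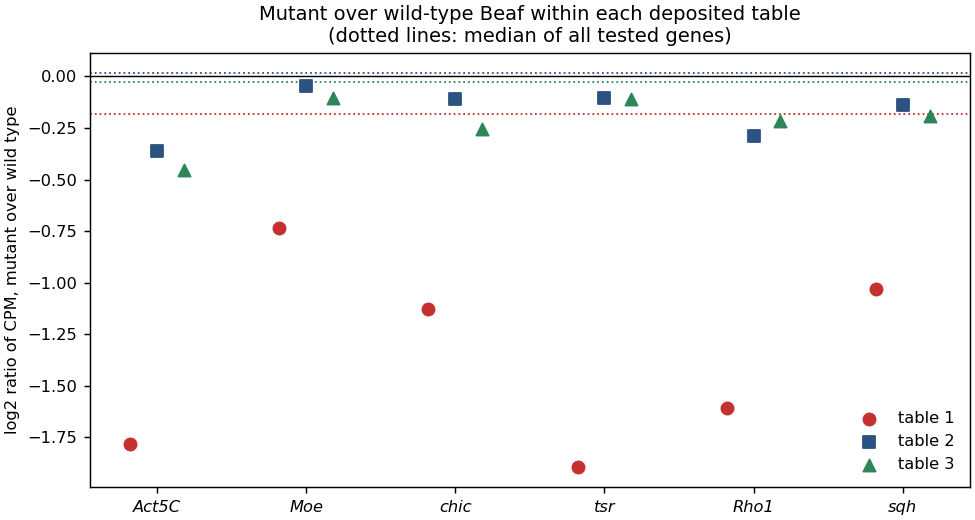
The vertical axis gives the log2 ratio of CPM, mutant over wild-type Beaf, within each of 3 deposited tables (symbols) for 6 genes (horizontal axis), and dotted lines give the median of all tested genes in each. All points lie below 0, and those of the libraries numbered 1 lie lowest, down to −1.90 for tsr.

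Because both libraries numbered 1 stood apart, the fit was repeated on libraries 2 and 3 of each genotype. That choice was made with the values known and narrows the spread against which differences are measured. Act5C and Rho1 were lower in the mutant there, and chic, tsr, Moe and sqh did not pass the threshold. All 6 had both mutant libraries below both wild-type libraries, as did 26.7% of the 6619 tested genes. For the 6 this too follows from the lack of overlap over all libraries. Over all genes limma-trend called 14.7%, with 5.39% lower and 9.34% higher in the mutant, and it called 13.7% lower among those averaging at least 100 CPM. The median log2 fold change of the 6 genes was −0.18, against −0.01 over all tested genes.

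Act5C fell from 4895 ± 87.7 to 3687 ± 104 CPM (SD, n = 2 each), to 0.753 times its wild-type level, a log2 difference of −0.41 ± 0.06 (SE, limma-trend adjusted p = 0.000177). Rho1 fell from 629 ± 49.4 to 527 ± 22.7 CPM (SD, n = 2 each), to 0.838 times, a log2 difference of −0.26 ± 0.07 (SE, limma-trend adjusted p = 0.0224). The call on Rho1 was lost when some single libraries were left out, which leaves 1 group with a lone library that is assumed to vary like the other group. Without wild-type library 2 its log2 fold change was −0.16 (limma-trend adjusted p = 0.229), without mutant library 3 it was −0.22 (adjusted p = 0.0973 by limma-trend), and DESeq2 gave nearly the same change as limma-trend, −0.25, with an adjusted p of 0.553. The other log2 fold changes were −0.18 for chic, −0.17 for sqh, −0.11 for tsr and −0.08 for Moe, with SEs of 0.06 to 0.08 and limma-trend adjusted p of 0.0707, 0.203, 0.311 and 0.464.

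Hemocyte markers moved in the opposite direction. In libraries 2 and 3, 8 of 9 tested markers were higher in the mutant by limma-trend and 0 were lower, where 9.34% of all tested genes were called higher. The summed level of the 11 markers in the tables was 1356, 4541 and 4885 CPM in the wild-type libraries and 7946, 10196 and 9974 CPM in the mutant libraries, in order of number. Of the listed markers lz and PPO2, which mark crystal cells, were at or under 9.28 CPM in all libraries. Wild-type library 1 had the least of this sum and, at 5235 CPM, the most Act5C. Among the mutant libraries, library 1 had the least of both, with Act5C at 1521 CPM. The CTCF control had a larger sum, 22185 CPM, with Act5C at 4571 CPM. Muscle, epithelial, neuronal, fat body and gonadal markers were also higher in mutant libraries 2 and 3 in 2 of 2, 2 of 5, 2 of 3, 2 of 2 and 2 of 2 tested genes, with 0 lower in each list, beside the same 9.34% of all genes. Of the 10 listed muscle markers 4 are the actin genes named above. The part of any of these in the levels of the actin genes was not tested, and a changed mix of cells cannot be told apart from changed RNA per cell in bulk samples.

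Other genes of the actin cytoskeleton went both ways. A list of 83 such genes was drawn up from textbook roles, with earlier results of these data known, and 74 had a row in the tables. Of 67 tested in libraries 2 and 3, limma-trend called 8 lower and 10 higher in the mutant and 49 did not pass, where 5.39% of all tested genes were called lower and 9.34% higher, with a median log2 fold change of −0.04. With all 6 libraries limma-trend called no gene at all. There 19 of the 67 had every mutant library below every wild-type library, against 18.4% of all tested genes. Every mutant library was above in 17, against 17.5%. Among tested genes averaging at least 100 CPM, 13.7% were called lower in libraries 2 and 3. Of those abundant genes 28.1% had every mutant library below. Their shares in the other direction were not computed, and the list holds genes on both sides of that level.

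**Figure D3:**
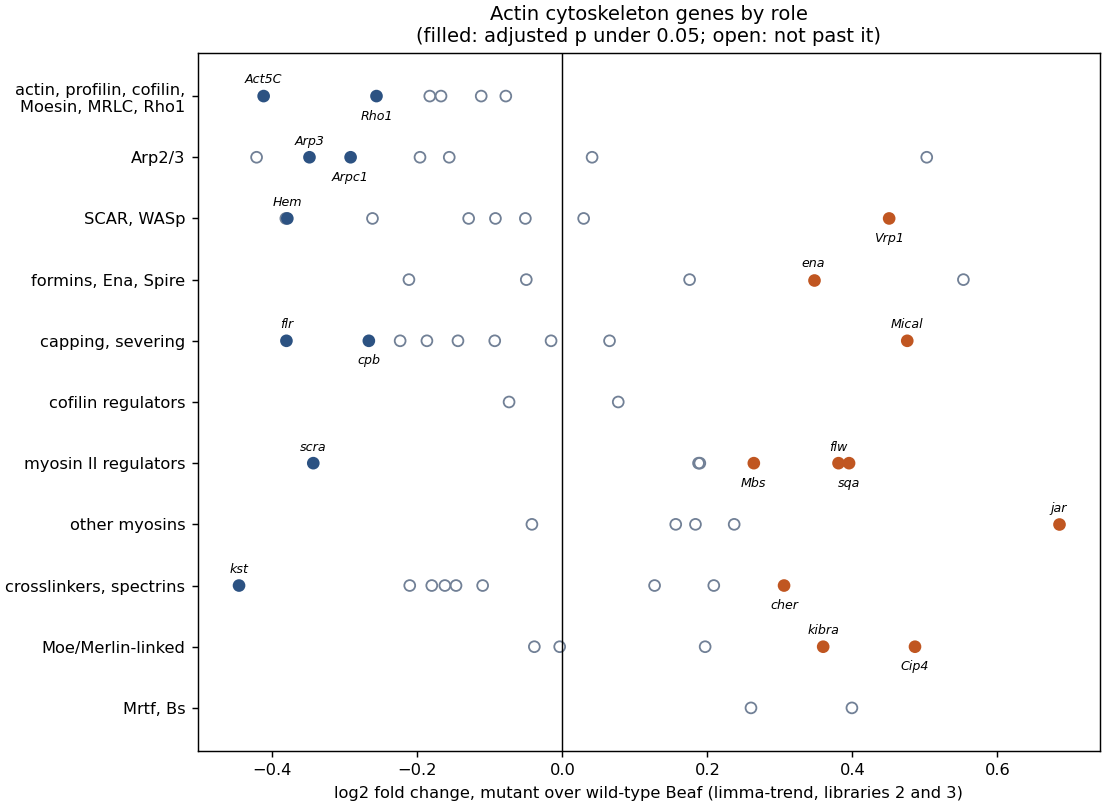
The horizontal axis gives the log2 fold change of mutant over wild-type Beaf in libraries 2 and 3 (limma-trend), with genes grouped by role on the vertical axis, filled points for genes past an adjusted p of 0.05 and open points for the rest. The 6 tested genes in the top row all lie below 0, from −0.41 for Act5C to −0.08 for Moe, while the other roles plotted hold genes on both sides, except Mrtf and bs, which both lie above 0.

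The calls by role from here to the CTCF comparison come from limma-trend on libraries 2 and 3 alone. There 5.39% of all tested genes were called lower and 9.34% higher, and with all 6 libraries none was called. In the Arp2/3 complex, which nucleates branches, 2 of 7 tested subunits fell and none rose. The 2 that fell were Arp3, with a log2 fold change of −0.35, and Arpc1, with −0.29 (limma-trend adjusted p = 0.0149 and 0.0110). Arp3 stood at 192, 205 and 178 CPM in wild-type libraries 1 to 3 and at 95.3, 153 and 148 CPM in the mutant libraries. Of the SCAR and WASp regulators of Arp2/3, 1 of 8 fell, Hem, a subunit of the SCAR complex (−0.38, limma-trend adjusted p = 0.0270), and 1 rose, Vrp1, the WASp-interacting protein verprolin (0.45, limma-trend adjusted p = 0.0144).

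Genes that act on filament ends and stability were split. The capping protein subunit gene cpb (−0.27) and flr (−0.38), which encodes the cofilin cofactor Aip1, fell, and Mical, an enzyme that oxidises and disassembles filaments, rose (0.48), with 6 of 9 not past the threshold. The barbed-end elongation factor gene ena rose (0.35), the only 1 of 5 tested in its group with formins and Spire. Among these 4 genes limma-trend's adjusted p ranged from 0.000392 for Mical to 0.0299 for cpb. Neither of the cofilin regulators tested, ssh (a cofilin phosphatase) and cdi, passed.

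Of 6 tested regulators of myosin II, 3 rose, 1 fell and 2 did not pass, beside 9.34% higher and 5.39% lower of all tested genes. The 3 that rose were sqa, which encodes a myosin light chain kinase-like protein (0.40), flw, a catalytic subunit of myosin phosphatase (0.38), and Mbs, its targeting subunit (0.26). In mutant library 1, which that fit leaves out, flw stood at 53.8 CPM, below the 64.5 to 75.8 CPM of the wild-type libraries. The anillin gene scra, which links actin and myosin in the cytokinetic ring, fell (−0.34). Limma-trend's adjusted p ranged from 0.00324 for sqa to 0.0450 for Mbs. The essential light chain gene Mlc-c did not pass, with a log2 fold change of 0.19. Of 5 other myosins 1 rose, jar (myosin VI), with a log2 fold change of 0.68 (limma-trend adjusted p = 0.00922). Its level in mutant library 1, 124 CPM, was above the 49.3 and 46.6 CPM of mutant libraries 2 and 3.

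Among crosslinkers and the membrane skeleton, kst, which encodes the heavy beta-spectrin of the apical cortex, fell (−0.45, limma-trend adjusted p = 4.9e-05) and cher, which encodes filamin, rose (0.31, limma-trend adjusted p = 0.00329), with 7 of 9 not past the threshold. The gene kst stood at 2446, 2125 and 2121 CPM in wild-type and at 471, 1553 and 1571 CPM in mutant libraries, with mutant library 1 lowest, as for Act5C. Of 5 genes linked to Moesin and Merlin or to membrane curvature, kibra (0.36) and Cip4 (0.49) rose and none fell (limma-trend adjusted p = 0.000882 and 0.000443). The transcription factor genes Mrtf and bs, which are known to drive actin genes in many cells, did not pass, with log2 fold changes of 0.26 and 0.40.

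The second comparison asked how depletion of CTCF changed these RNAs, with 1 library in each group and therefore no test. CTCF itself was at 55.4 CPM in the control and 11.3 CPM in the knockdown. None of the 7 genes with values was past 1.5-fold in either direction. Of 7098 genes with at least 50 reads in the pair, 1.04% were past 1.5-fold lower and 3.32% past 1.5-fold higher in the knockdown, and the median ratio of knockdown to control was 1.04. Intervals given here are exact (Clopper-Pearson) at 95% and cover counting error only.

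Act5C stood at 4571 CPM in the control and 4168 CPM in the knockdown, a ratio of 0.912 (0.900 to 0.924). Rho1 (1156 and 1084 CPM), Moe (2522 and 2435 CPM) and sqh (317 and 305 CPM) had ratios of 0.938, 0.965 and 0.960. The interval of sqh, 0.913 to 1.01, included 1. Profilin (chic) stood at 1171 and 1247 CPM, a ratio of 1.06 (1.04 to 1.09), close to the median of all genes.

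Cofilin and fascin were the highest of the 7. The level of tsr was 995 CPM in the control and 1281 CPM in the knockdown, a ratio of 1.29 (1.25 to 1.32), and 90.4% of genes had a lower ratio. The level of sn was 11.1 CPM in the control and 15.8 CPM in the knockdown, from 122 and 146 reads, a ratio of 1.42 (1.11 to 1.82). Of the genes with at least 50 reads, 94.9% had a lower ratio than sn. Whether either would differ between replicate cultures cannot be told from 1 library each.

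**Figure D4:**
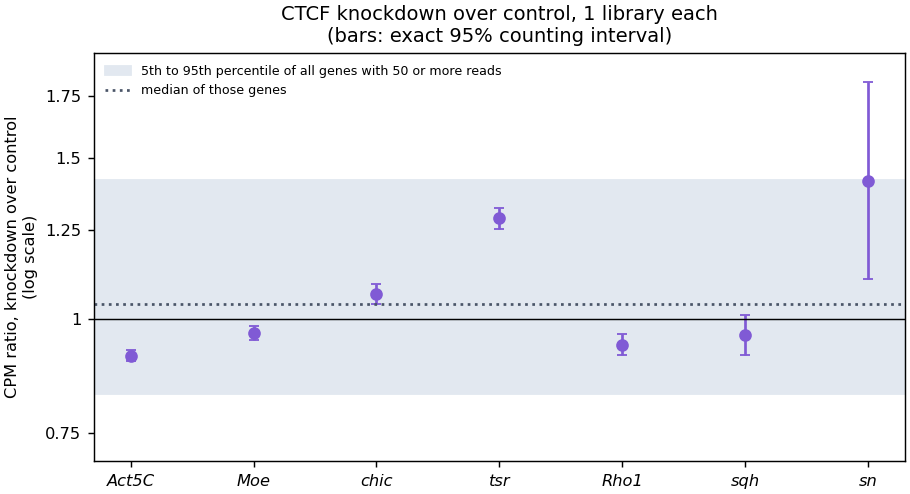
The vertical axis (log scale) gives the ratio of CPM, CTCF knockdown over control, for 7 genes, with bars for the exact 95% counting interval, a band from the 5th to the 95th percentile of all genes with at least 50 reads and a dotted line at their median. All 7 points lie within the band from 0.828 to 1.42, with Act5C lowest at 0.912 and tsr and sn highest at 1.29 and 1.42.

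Of 68 other actin cytoskeleton genes with at least 50 reads in the CTCF pair, 1 was past 1.5-fold, kst, at 385 CPM in the control and 173 CPM in the knockdown (ratio 0.450, interval 0.425 to 0.477). The median ratio of the 68 genes was 0.990. The gene jar was at 68.8 and 98.5 CPM, a ratio of 1.43.

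The genes whose profile over all 8 libraries was most like that of each of the 6 were found by the mean absolute difference between log2 CPM values, each gene being centred on its own mean. This measure is a description over libraries that share tables in pairs. It takes in the difference between the Beaf lines and the CTCF pair, whose part in these distances was not tested. In the CTCF control Act5C stood at 0.913 times its level in wild type, and the other 5 at 1.66 to 1.86 times. For Act5C the nearest were Tapdelta, svr and Mtpbeta, at 0.06, 0.06 and 0.07, against a median of 0.51 over all tested genes. The closest of the other 5 to Act5C was sqh, which ranked 1227 at 0.34. By contrast sqh ranked 19 for both chic and Moe, each at a mean difference of 0.07. The nearest gene was Rpn10, a ubiquitin receptor of the proteasome, for chic, row for Moe, Ykt6, a SNARE protein gene, for sqh, Chc, the clathrin heavy chain gene, for Rho1 and mRpL51, a mitochondrial ribosomal protein gene, for tsr, each at 0.03 to 0.07. The nearest other gene of the group to tsr was Rho1, at rank 58, and to Rho1 it was chic, at rank 45.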

How the data were processed

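RNA-seq of 8 S2 libraries was analysed from 4 tables. The submitters' processing notes list CASAVA 1.8, HTSeq and BWA. Which build, annotation and strand setting applied is not given in the sources used here. The deposited mutant and knockdown columns hold whole-number read counts per gene. The deposited wild-type and control columns hold a signal rather than read counts. In wild-type libraries 1 and 2 and the control each count had been scaled by a single number and rounded, as the values themselves show. There division by 1.23, 1.24 and 1.30 gave whole reads for 99.99%, 100% and 99.99% of positive values (equal after rounding). No such number was recovered for wild-type library 3, which was used as deposited. Levels are CPM over gene rows, with the 5 rows of unassigned reads left out, from deposited values for the Beaf lines and recovered reads for the CTCF control. CPM removes the column factor, so levels are set side by side across tables, while ratios within tables do not depend on it.

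Limma-trend was run on all genes (TMM factors, filterByExpr, prior count 2, two-sided, Benjamini-Hochberg at 0.05). It replaces a count test because rescaled values are not counts. Alternatives were edgeR, DESeq2 and limma-voom on recovered reads, other scalings, prior counts, filters, a block and left-out libraries. For wild-type library 3 the deposited values stood in for recovered reads. All genes of the group were named, as were list genes past the adjusted p in libraries 2 and 3 (at most 12 a direction) or past 1.5-fold in the CTCF pair with at least 50 reads; jar in that pair and the list genes that did not pass were chosen after their values were seen. For 1 group of the list, genes, counts and plot row are not reported here, though its genes stay in the totals. Members and lists were chosen with earlier results of these data known. Fits used limma 3.58.1 with edgeR 4.0.16 and DESeq2 1.42.0 under R 4.3.3. Other steps used numpy 2.4.6, scipy 1.17.1, pandas 2.3.3 and, for plots, matplotlib 3.10.9 on Python 3.11.15.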

Additional observations from a re-analysis of the deposited data

How the results depend on the processing

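With all 6 Beaf libraries, DESeq2 called 220 genes where limma-trend called 0, and leaving out 1 library gave 0 to 471 genes and 0 to 1 of the 6 actin cytoskeleton genes. The value of 471 came without mutant library 1, when Act5C passed with a log2 fold change of −0.47 (limma-trend adjusted p = 0.0366). In libraries 2 and 3, DESeq2 called 180 genes, 166 higher and 14 lower in the mutant. There limma-trend called 975, 618 higher and 357 lower. Of the 6, DESeq2 called 1, Act5C. The calls given above on other actin cytoskeleton genes, including those that fell, are from limma-trend alone. The gene chic passed with limma-voom (adjusted p = 0.0376). No gene of the 6 changed direction under any alternative run. The deposited table as a replicate block gave 0 calls in 6 libraries and 1230 in libraries 2 and 3, where chic also passed (limma-trend adjusted p = 0.0389). Deviations from the genotype mean gave r across genes of −0.15, −0.12 and −0.08 for same-numbered libraries. Libraries of unlike number gave r from −0.12 to 0.14. With libraries 2 and 3 alone the same-numbered r was 0.005. As same and unlike numbers gave overlapping values, this r cannot tell whether the numbers pair the samples. For these genes the count lower within all tables (6) and the count past the fold in the CTCF pair (0) were the same under every alternative run. The former follows from the lack of overlap between the genotypes. The shares of all genes and of the actin list past the fold in that pair were computed under 1 setting. Depth limits sn in the Beaf lines, and the single libraries limit the CTCF pair.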

Other observations

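Wild-type Beaf lines and the CTCF control differ in treatment and share of reads in genes, so the difference between them cannot be told apart from those. On the log2 scale with a prior count of 2, chic, tsr, Moe, sqh and Rho1 were 1.66 to 1.86 times as high in the control as in the mean of the wild-type libraries, and the median log2 difference of wild type from control over all tested genes was −0.59. Act5C was at 0.913 times, and sn at 4.90 times. No difference of this kind was tested.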
